A study of Mus musculus with 22 samples.

Results

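The 10 genes described here encode immune checkpoint receptors of T cells and NK cells, the ligands of these receptors, and the transcription factor that defines regulatory T cells. They were taken by symbol, ignoring case, from the 2 tables of normalized gene signal that hold the study's tumours. The receptors are Pdcd1 (PD-1), Ctla4, Lag3, Havcr2 (TIM-3) and Tigit. The ligands are Cd274 (PD-L1), Pdcd1lg2 (PD-L2), Lgals9 (galectin-9) and Pvr (CD155), and Foxp3 completes the list. All 10 were found in both tables, among 24063 genes in the first and 24019 in the second. A filter on low values asked for 10 or more in 2 tumours of the first set or 3 tumours of the second. In the first set 9 of the genes passed it, all but Ctla4, and in the second set all 10 did.

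RNA sequencing of total RNA was done on 22 untreated liver tumours of C57BL/6 mice. Hydrodynamic tail-vein injection started the tumours: DNA given fast and in bulk through a tail vein ends up in hepatocytes. MYC was part of every tumour. The second driver was either p53, written as sgp53 in the titles of the second set, or β-catenin, written as bcat in the first set and CTNNB1 in the second. The injected DNA also encoded luciferase, either plain (luc) or fused to peptides from model antigens, so that T cells can see the tumour cells (lucOS). The first set held 3 myc.lucOS.p53, 3 myc.luc.p53, 2 myc.lucOS.bcat and 4 myc.luc.bcat tumours. The second set held 4 myc.lucOS.p53, 3 MYC.luc.CTNNB1 and 3 MYC.lucOS.CTNNB1 tumours. The title of the series asks whether β-catenin activation helps tumours escape immunity and resist antibodies against PD-1, and the comparisons below ask how the checkpoint genes themselves differ between these tumours. The labels do not name the promoters of the plasmids or say how β-catenin was altered, and whether every tumour had an animal of its own is not stated. The p-values therefore measure the spread between these tumour samples, which may be technical.

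Immune checkpoints are receptors that restrain lymphocytes. PD-1 appears on T cells after they meet antigen and passes an inhibitory signal when it binds PD-L1 or PD-L2 on tumour cells or myeloid cells. CTLA-4 competes with the costimulatory receptor CD28 for CD80 and CD86, LAG-3 binds MHC class II and the liver protein FGL1, TIM-3 has galectin-9 and CEACAM1 among its reported ligands, and TIGIT competes with CD226 for CD155. PD-L1 is also induced by interferon gamma in many cell types, hepatocytes among them. FOXP3 directs the programme of regulatory T cells, which carry high levels of CTLA-4 and TIGIT.

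Depth ran from 33706072 to 54872646 reads over genes per tumour in the first set and from 33550553 to 50116323 in the second. The tables were scaled separately, so tests stay within a set. The drivers left their marks on the transcriptome: Trp53 signal was 1423 to 2280 in the p53 tumours against 3296 to 4994 in the β-catenin tumours of the first set, and 1345 to 2223 against 2631 to 4405 in the second. Axin2, a known target of β-catenin, was 12.2 to 103 against 868 to 3586, and 2.38 to 11 against 349 to 1047. One luc p53 tumour of the first set (tumour 1) had 8.90% of its signal on the ribosomal RNA gene Rn45s, where the others of that set had 1.22% to 2.04%. In the second set, lucOS p53 tumours 1 to 3 have names that begin with AL and p53 tumour 4 has a name that begins with JAX, like all 6 β-catenin tumours. The labels do not say what these letters stand for. Since the tumours were sequenced in bulk, fewer cells of a type and less RNA per cell cannot be told apart. The labels do not say whether strand was kept, so reads of overlapping genes on opposite strands cannot be told apart either.

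The promoters shown are those of the 5 genes called lower in lucOS β-catenin tumours of the second set. Each sequence is the 250 bases before the RefSeq start (build GRCm38.p6), in the direction of transcription. Of the 10 genes, 8 had a RefSeq promoter. Capitals mark GGAAA on either strand, the core of sites for NFAT, a factor that acts downstream of the T cell receptor. These letters can overlap the interferon-response pattern named below, since both contain GAAA.
Cd274: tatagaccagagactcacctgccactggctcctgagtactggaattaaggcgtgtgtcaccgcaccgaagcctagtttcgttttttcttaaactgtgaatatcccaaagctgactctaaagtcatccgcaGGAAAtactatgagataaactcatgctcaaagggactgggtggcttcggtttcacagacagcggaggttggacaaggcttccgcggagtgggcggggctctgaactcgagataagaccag
Pdcd1lg2: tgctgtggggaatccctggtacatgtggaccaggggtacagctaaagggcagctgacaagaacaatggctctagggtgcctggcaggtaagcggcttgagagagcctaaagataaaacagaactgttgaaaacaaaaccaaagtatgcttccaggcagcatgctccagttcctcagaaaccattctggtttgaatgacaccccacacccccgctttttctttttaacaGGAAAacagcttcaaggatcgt
Pdcd1: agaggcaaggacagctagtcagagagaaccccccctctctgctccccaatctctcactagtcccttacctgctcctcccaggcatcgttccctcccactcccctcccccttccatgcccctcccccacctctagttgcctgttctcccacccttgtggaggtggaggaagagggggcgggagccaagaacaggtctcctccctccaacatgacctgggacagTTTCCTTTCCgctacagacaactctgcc
Ctla4: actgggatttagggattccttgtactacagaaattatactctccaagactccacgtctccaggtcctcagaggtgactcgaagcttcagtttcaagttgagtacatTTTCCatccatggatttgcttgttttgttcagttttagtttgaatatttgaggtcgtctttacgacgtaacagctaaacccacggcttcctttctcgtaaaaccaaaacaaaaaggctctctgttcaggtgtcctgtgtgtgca
Tigit: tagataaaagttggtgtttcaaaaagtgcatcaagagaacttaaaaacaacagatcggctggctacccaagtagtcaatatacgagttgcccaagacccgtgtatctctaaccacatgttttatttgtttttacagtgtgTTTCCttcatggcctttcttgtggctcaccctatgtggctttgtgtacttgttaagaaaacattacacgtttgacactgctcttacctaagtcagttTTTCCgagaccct
Cd274 and Pdcd1lg2 are neighbours on the plus strand of chromosome 19 (chr19:29367188-29367437 and chr19:29410669-29410918). The genes themselves span 29367455 to 29388095 (7 exons) and 29410919 to 29471161 (6 exons) in GENCODE vM21. The windows of Ctla4 (chr1:60908775-60909024, plus strand), Pdcd1 (chr1:94052554-94052803, minus strand) and Tigit (chr16:43664185-43664434, minus strand) complete the set. GGAAA was in all 5 windows, and it was in 55.6% of the 32851 mouse promoter windows of this length, so its presence does not set these genes apart. Pdcd1 and Tigit held it at 2 places each. The interferon-response pattern GAAANNGAAA (2.98% of all windows on either strand) and the TCF/LEF pattern CTTTGAT (3.21%) were in none of the 5 windows. The GAS-like pattern TTCNNNGAA (7.02%), also searched, was in none of them either. Among the other members with a promoter, Lgals9 held GAAANNGAAA and Foxp3 held TTCNNNGAA. A match of letters is a description of the sequence, and no match says only that these letters are not in these bases.

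In lucOS tumours of the second set, both PD-1 ligands, PD-1, CTLA-4 and TIGIT were lower with β-catenin than with p53. In the fit over 15625 genes (limma, Benjamini-Hochberg adjusted p under 0.05), 5 of the 10 genes were called lower and 0 higher, beside 10.9% of all genes called lower, 6.08% called higher and 17.0% called in either direction. The 3 β-catenin tumours were all below the 4 p53 tumours for 7 of the 10 genes, beside 22.5% of all genes. All 10 log2 differences were negative, with a median of -1.47 over the 10 genes and -0.16 over all genes. Pdcd1lg2, Pdcd1 and Ctla4 reached a value of 10 only in p53 tumours, and Tigit did so in p53 tumours and 1 β-catenin tumour. These 4 thus passed the filter through the group where they are high. With no filter the same 5 genes were called, beside 12.1% of all genes in either direction (885 higher and 1567 lower). Over all genes the calls were 950 higher and 1706 lower as deposited, and 1300 higher and 1052 lower after TMM scaling, which moved the median of all genes to -0.01. Cd274, Pdcd1lg2, Pdcd1 and Tigit were still called lower after it, and Ctla4 did not reach the filter there.

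**Figure D1:**
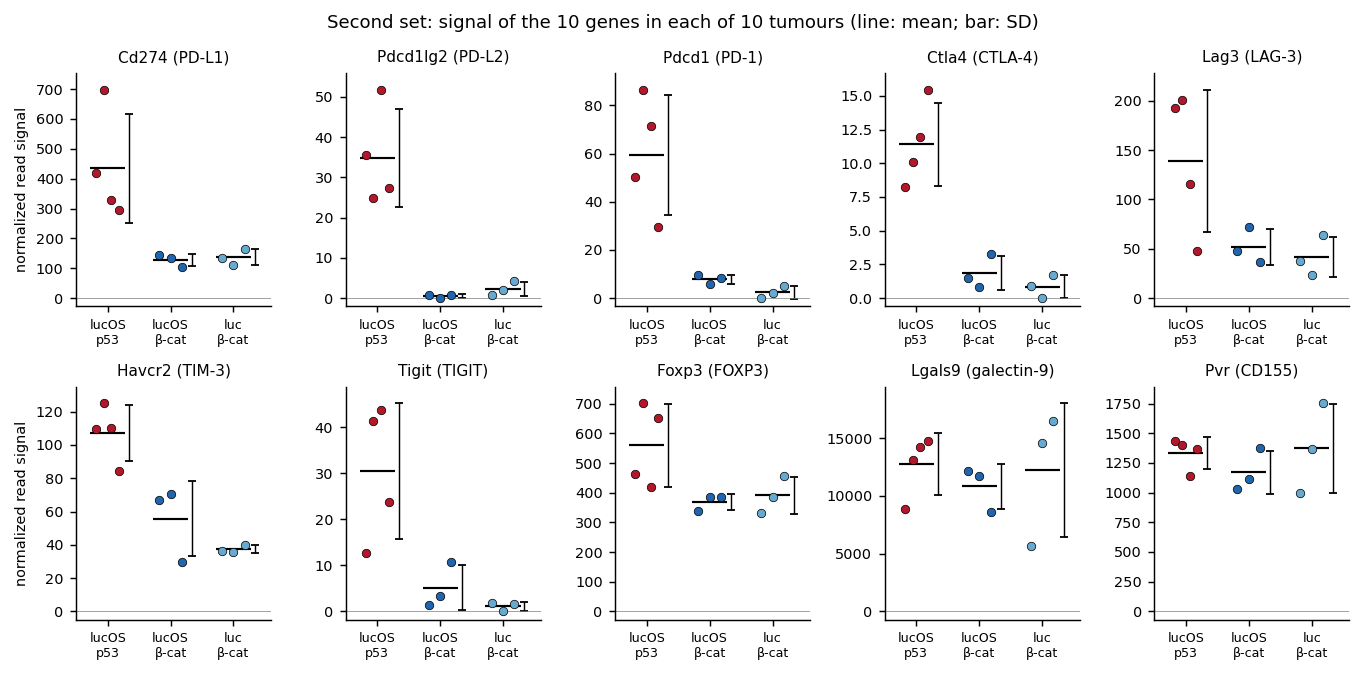
Normalized read signal (vertical axes, linear, each including 0) of the 10 genes in each tumour of the second set, by group (points: tumours; line: group mean; bar at the right of each group: SD; n = 4, 3 and 3). The 4 lucOS p53 tumours lie above all 6 β-catenin tumours for Cd274, Pdcd1lg2, Pdcd1, Ctla4, Havcr2 and Tigit, while Lgals9 and Pvr overlap.

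PD-L1 and PD-L2 are the ligands of PD-1. Cd274 signal was 419, 697, 328 and 293 in the 4 lucOS p53 tumours and 143, 134 and 105 in the 3 lucOS β-catenin tumours. The groups did not overlap, and the lowest p53 tumour, the one named JAX, was still above the highest β-catenin tumour. The means were 435 ± 183 (SD, n = 4) and 128 ± 19.9 (SD, n = 3), and the log2 difference was -1.69 (SE 0.32), a 3.22-fold lower signal (limma, adjusted p = 0.0111). Pdcd1lg2 signal was 35.6, 24.8, 51.7 and 27.3 in the p53 tumours. In the β-catenin tumours it was 0.728, 0 and 0.823, from 1, 0 and 1 reads. This was the gene with the largest difference of the 10, with 141 reads in all against 2. Scaled for the summed factors of the 4 and 3 tumours, the ratio was 66.4 (95% counting interval 18.0 to 554, exact, which covers counting error only). Its fitted log2 difference was -4.56 (SE 0.51, limma, adjusted p = 0.00159), which depends on the pseudocount, from -5.19 with 0.5 to -2.81 with 5. Cd274 shares 511 exon bases with the antisense transcript AC119228.1, which is 14.1% of its transcript.

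PD-1 itself was lower as well. Pdcd1 signal was 50.2, 86.5, 71.6 and 29.7 in the lucOS p53 tumours and 9.46, 5.80 and 8.23 in the lucOS β-catenin tumours. The highest β-catenin tumour was below the lowest p53 tumour. The means were 59.5 ± 24.8 (SD, n = 4) and 7.83 ± 1.86 (SD, n = 3), with a log2 difference of -2.69 (SE 0.64, limma, adjusted p = 0.0218). Without one of p53 tumours 1 to 3 or β-catenin tumours 2 or 3 the adjusted p was 0.0526 to 0.0623, at differences of -2.74 to -2.48.

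Ctla4, the competitor of CD28, was the least abundant receptor. Its signal was 8.21, 10.1, 11.9 and 15.4 in the p53 tumours, from 9 to 13 reads each, and 1.46, 0.83 and 3.29 in the β-catenin tumours, from 1 to 4 reads. The groups were apart, with a log2 difference of -2.18 (SE 0.53, limma, adjusted p = 0.0241). Over summed reads, 45 against 7, the ratio was 6.06 after the same scaling (95% counting interval 2.71 to 15.9). Without β-catenin tumour 1 or 2 the adjusted p was 0.0541 or 0.0633 in limma, and without p53 tumour 2, 3 or 4 Ctla4 no longer reached the filter.

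Tigit, the inhibitory receptor for CD155, had a signal of 12.8, 41.4, 43.8 and 23.8 in the p53 tumours and 1.46, 3.32 and 10.7 in the β-catenin tumours. The gap between the groups was narrow, between p53 tumour 1 and β-catenin tumour 3. The log2 difference was -2.51 (SE 0.69, limma, adjusted p = 0.0356), and edgeR on the recovered reads gave an adjusted p of 0.0723. Without one of p53 tumours 2 to 4 or β-catenin tumours 1 or 2 the adjusted p was 0.0575 to 0.0983.

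Lag3 and Havcr2 were not called in lucOS tumours. Lag3 signal was 193, 201, 115 and 47.5 in the p53 tumours and 48.0, 72.1 and 36.2 in the β-catenin tumours. The p53 tumour named JAX lay among the β-catenin tumours, while the other 3 were above them. The log2 difference was -1.25 (95% interval -2.50 to -0.01, limma, adjusted p = 0.142), and without p53 tumour 4 it was -1.70 (adjusted p = 0.0445). Havcr2 signal was 110, 125, 110 and 84.4 in the p53 tumours and 66.9, 70.5 and 29.6 in the β-catenin tumours, which did not overlap. Its log2 difference was -1.02 (95% interval -1.81 to -0.22, limma, adjusted p = 0.0747).

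The ligands Lgals9 and Pvr were the most abundant of the 10 genes and showed no call. Lgals9 signal was 8825 to 14744 in the p53 tumours and 8581 to 12150 in the lucOS β-catenin tumours, with a log2 difference of -0.22 (95% interval -1.01 to 0.56, limma, adjusted p = 0.688). Pvr signal was 1138 to 1437 and 1028 to 1373, with a log2 difference of -0.19 (95% interval -0.65 to 0.26, limma, adjusted p = 0.531). The groups overlapped for both genes.

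The β-catenin tumours without the lucOS antigen were also below the p53 tumours for the 5 called genes. In the 3 luc β-catenin tumours, Cd274 signal was 135, 111 and 165, Pdcd1lg2 was 0.865, 1.94 and 4.26, and Pdcd1 was 0, 1.94 and 5.11. Ctla4 was 0.865, 0 and 1.70, and Tigit was 1.73, 0 and 1.70. All 6 β-catenin tumours, luc and lucOS, were thus below all 4 p53 tumours for Cd274, Pdcd1lg2, Pdcd1, Ctla4, Havcr2 and Tigit, 6 of the 10 genes, beside 15.9% of all genes. Among tumours named JAX only, the p53 group is 1 tumour, which limma assumes to vary like the other groups. In that fit Pdcd1lg2, Pdcd1, Ctla4 and Tigit did not reach the filter and 0 of the other 6 genes were called, beside 0.152% of all genes, with Cd274 at a log2 difference of -1.21 (limma, adjusted p = 0.507). The JAX p53 tumour was above each β-catenin tumour for Cd274, Pdcd1lg2, Pdcd1, Ctla4, Havcr2 and Tigit, with Cd274 at 293 against 105 to 165 and Pdcd1lg2 at 27.3 against 0 to 4.26. Name and driver cannot be told apart for p53 tumours 1 to 3.

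The same comparison in the first set gave few calls among the 10 genes. Among luc tumours 0 of the 9 tested genes were called (limma), beside 15.1% of all genes. At an unadjusted p under 0.05 there were 2 of the 9, Pdcd1lg2 and Tigit, beside 5237 of all 16108 genes. On recovered reads edgeR and DESeq2 called 0 of the 9 as well, beside 1785 and 3303 of all genes. The luc groups were apart, with β-catenin lower, for 2 of 9 genes, beside 23.2% of all genes. Among lucOS tumours 0 of 9 were called by limma, edgeR or DESeq2, beside 4.21%, 2.59% and 12.7% of all genes. None of the 9 had an unadjusted p under 0.05 in limma, beside 3809 of all genes. The limma share of all genes was 0.473% without lucOS β-catenin tumour 2 and 0.752% without tumour 1. These groups were apart for 2 of 9, Tigit and Foxp3, beside 24.3% of all genes. The medians over the 9 genes were -0.63 in luc and -0.57 in lucOS tumours, against -0.20 and -0.15 over all genes. On the average of both differences 1 of 9 was called lower, Tigit, beside 18.6% of all genes called lower and 28.3% in either direction. With TMM scaling the calls over all genes went from 956 higher and 1475 lower to 1227 and 677 in luc tumours, from 261 and 417 to 326 and 203 in lucOS tumours, and from 1568 and 2994 to 2086 and 1707 on the average.

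**Figure D2:**
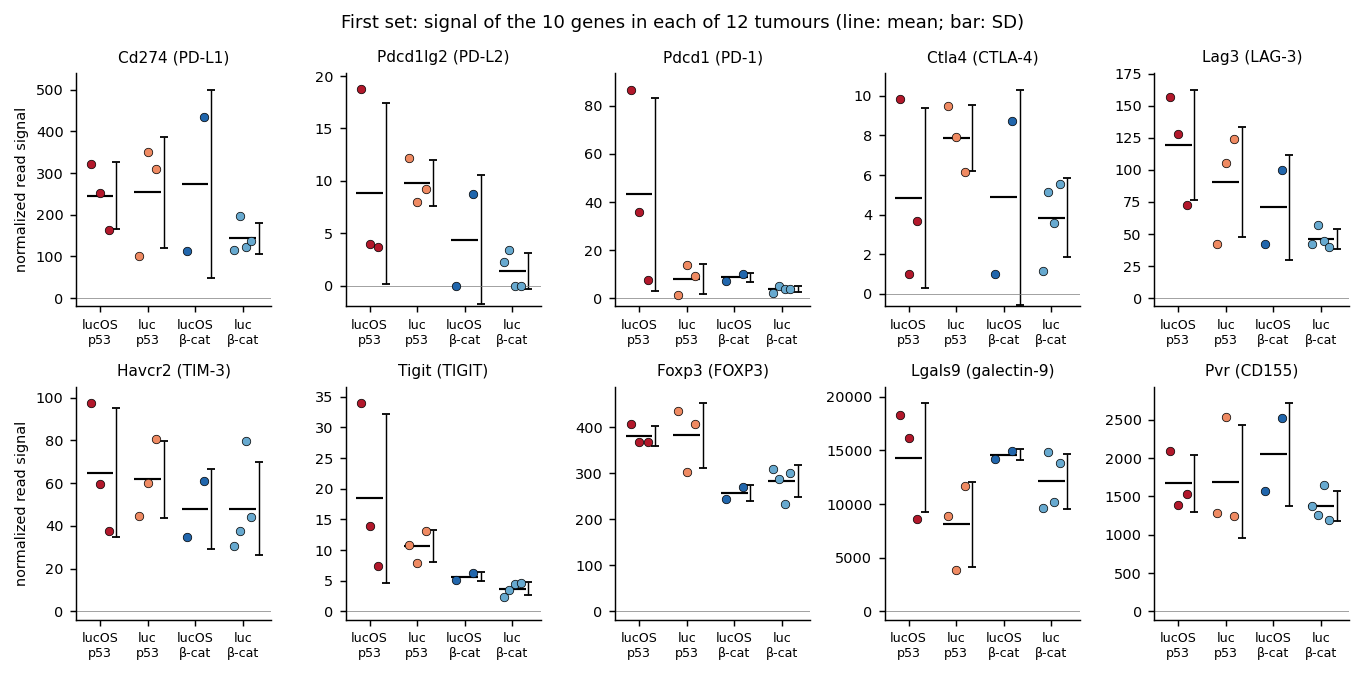
Normalized read signal (vertical axes, linear, each including 0) of the 10 genes in each tumour of the first set, by group (points: tumours; line: group mean; bar at the right of each group: SD; n = 3, 3, 2 and 4). For Tigit all 6 β-catenin tumours lie at 6.23 or below and all 6 p53 tumours at 7.36 or above, while the groups overlap for Cd274, Lgals9 and Pvr.

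Tigit was the member with the clearest separation in the first set. Its signal was 34.0, 13.9 and 7.36 in the lucOS p53 tumours and 10.9, 7.94 and 13.1 in the luc p53 tumours. It was 5.11 and 6.23 in the lucOS β-catenin tumours and 2.27, 3.41, 4.48 and 4.62 in the luc β-catenin tumours. All 6 β-catenin tumours were below all 6 p53 tumours for Tigit and for no other of the 9 genes, beside 8.96% of all genes. The average log2 difference was -1.31 (SE 0.43, limma, adjusted p = 0.042). The call was lost with DESeq2 (adjusted p = 0.0507), with TMM scaling (0.072) and without any one of the tumours other than lucOS p53 tumour 3, at adjusted p of 0.0535 to 0.112 and differences of -1.40 to -1.03. Without lucOS p53 tumour 3 the adjusted p was 0.0239. The counts behind it were 2 to 38 reads per tumour.

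Pdcd1lg2 was at 0 in 3 of the 6 β-catenin tumours of the first set. Its signal was 18.8, 3.98 and 3.68 in lucOS p53, 12.2, 7.94 and 9.22 in luc p53, 0 and 8.72 in lucOS β-catenin, and 2.27, 3.41, 0 and 0 in luc β-catenin tumours. The luc groups did not overlap, and the lucOS groups did. The average log2 difference was -1.88 (SE 0.70, limma, adjusted p = 0.0659).

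Cd274 did not separate the drivers in the first set. Its signal was 322, 253 and 163 in lucOS p53, 102, 352 and 309 in luc p53, 114 and 434 in lucOS β-catenin, and 116, 198, 124 and 136 in luc β-catenin tumours. The highest value of all 12 was that of lucOS β-catenin tumour 2, and the lowest was that of luc p53 tumour 1, the tumour with high Rn45s signal. The log2 difference was -0.67 (95% interval -1.85 to 0.51) among luc tumours and -0.09 (-1.50 to 1.32) among lucOS tumours (limma, adjusted p = 0.413 and 0.95). Without luc p53 tumour 1 the luc difference was -1.23 (adjusted p = 0.164), and without lucOS β-catenin tumour 1 the lucOS difference turned to 0.87 (adjusted p = 0.511). The log2 difference of -1.69 seen in lucOS tumours of the second set lay inside the luc interval and outside the lucOS interval; the difference between sets was not tested.

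Pdcd1 had its 2 highest values of the first set in lucOS p53 tumours. Its signal there was 86.7, 35.8 and 7.36, against 1.36, 13.6 and 9.22 in luc p53, 7.16 and 9.97 in lucOS β-catenin and 2.27, 5.12, 3.58 and 3.70 in luc β-catenin tumours. LucOS p53 tumours 1 and 2 were above all other tumours, and tumour 3 lay within the range of the other groups. The driver differences were -1.67 (95% interval -3.84 to 0.51) in lucOS and -0.63 (-2.45 to 1.19) in luc tumours (limma, adjusted p = 0.337 and 0.627).

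The other receptors and ligands of the first set overlapped between drivers. Lag3 ranged from 42.1 to 157 in the 6 p53 tumours (median 115) and from 39.7 to 99.7 in the 6 β-catenin tumours (median 43.3). Without luc p53 tumour 1 the average log2 difference of Lag3 was -1.06 (limma, adjusted p = 0.0482), against -0.82 with it (adjusted p = 0.125). Havcr2 ranged from 37.7 to 97.4 (median 59.9) and from 30.6 to 79.7 (median 41.0). Ctla4, which did not reach the filter, ranged from 0.996 to 9.83 and from 1.02 to 8.72. Lgals9 ranged from 3821 to 18255 and from 9675 to 14961, and Pvr from 1245 to 2540 and from 1198 to 2519. In the luc comparison the log2 difference of Lgals9 was 0.70 (95% interval -0.11 to 1.51, limma, adjusted p = 0.212), the only positive one of the 9.

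**Figure D3:**
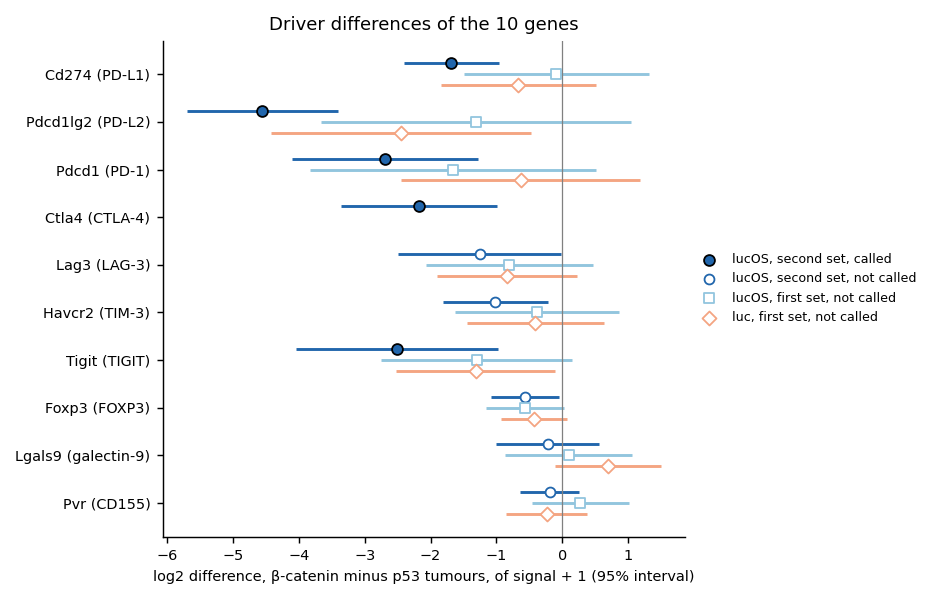
Log2 difference in normalized signal + 1 between β-catenin and p53 tumours (horizontal axis, negative where β-catenin is lower) with its 95% interval from limma, for each of the 10 genes in lucOS tumours of the second set and in lucOS and luc tumours of the first. Filled points passed an adjusted p of 0.05: Cd274, Pdcd1lg2, Pdcd1, Ctla4 and Tigit in the second set only, with Ctla4 not tested in the first.

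Foxp3 was not called between drivers, and its exons overlap those of a neighbour. In the second set its signal was 465, 702, 419 and 652 in lucOS p53, 339, 384 and 387 in lucOS β-catenin and 332, 387 and 457 in luc β-catenin tumours. The lucOS groups were apart and the luc β-catenin tumours reached into the p53 range. The log2 difference was -0.56 (95% interval -1.08 to -0.05, limma, adjusted p = 0.114). In the first set it was 303 to 436 in the 6 p53 tumours and 233 to 309 in the 6 β-catenin tumours, with an average log2 difference of -0.50 (SE 0.18, limma, adjusted p = 0.0569).

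Foxp3 lies on chromosome X (7573644 to 7595245, plus strand, GENCODE vM21 on GRCm38) and ends inside Ccdc22, a gene of endosomal sorting that is transcribed from the minus strand (7593809 to 7605517). Foxp3 exons also overlap those of Gm36995 on the opposite strand (373 bases, 9.7% of the transcript) and of Flicr on the same strand (171 bases, 4.5%). The exons of Foxp3 and Ccdc22 share 590 bases, 15.4% of the Foxp3 transcript and 25.1% of that of Ccdc22. Of all genes, Ccdc22 was the one whose signal was most like that of Foxp3 across tumours (Pearson r of log2 signal 0.941 over 12 tumours and 0.983 over 10). The ratio of Foxp3 to Ccdc22 was 0.248 to 0.310 in all 12 tumours of the first set and 0.377 to 0.441 in all 10 of the second. Foxp3 signal was also 2.42 to 26.6 times the summed signal of Cd3d, Cd3e and Cd3g, the CD3 chains that every T cell carries. Ccdc22 itself had driver differences of -0.54 in the second set (limma, adjusted p = 0.0914) and -0.55 on average in the first (adjusted p = 0.00684), close to those of Foxp3. How many of the Foxp3 reads came from the bases shared with these genes was not tested, so the Foxp3 values are not a measure of regulatory T cells by themselves.

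**Figure D4:**
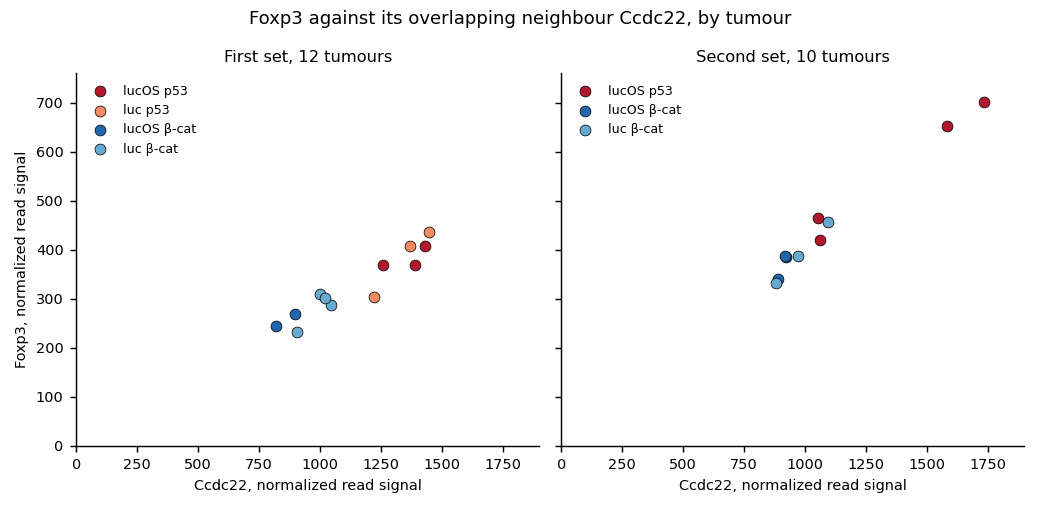
Normalized read signal of Foxp3 (vertical axis) against that of the overlapping gene Ccdc22 (horizontal axis), 1 point per tumour, coloured by group, in the first set (left) and the second set (right), whose scales were set separately. The points lie close to a line through 0 in each set, at ratios of 0.248 to 0.310 and 0.377 to 0.441.

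The lucOS antigen gave no call. In 3 comparisons of lucOS with luc tumours, 0 of the tested genes passed in limma (p53, first set: 0 of 9; β-catenin, first set: 0 of 9; β-catenin, second set: 0 of 10), beside 0.0% of all genes in each. Of all genes 722, 222 and 288 had an unadjusted p under 0.05, edgeR called 0 genes in each, and DESeq2 called 9, 18 and 10, none of them a member. The test of whether the driver difference itself differs between lucOS and luc tumours of the first set also gave 0 of 9 in limma, beside 0.0% of all genes, with 436 genes at an unadjusted p under 0.05, 0 by edgeR and 17 by DESeq2.

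Among the members, Pdcd1, Tigit, Lag3 and Havcr2 were higher with lucOS in each comparison of lucOS with luc tumours without passing the test. In p53 tumours and β-catenin tumours of the first and second set, the log2 differences of Tigit were 0.52, 0.53 and 1.36. They were 0.46, 0.50 and 0.37 for Lag3 and 0.0057, 0.0362 and 0.47 for Havcr2. Cd274, Pdcd1lg2, Foxp3, Lgals9 and Pvr changed sign between the comparisons. For Pdcd1 the log2 difference was 2.09 in p53 tumours (95% interval 0.14 to 4.03, unadjusted p = 0.0377 in limma, adjusted p = 0.952). It was 1.05 in β-catenin tumours of the first set (-1.01 to 3.12) and 1.73 in those of the second (0.21 to 3.25, unadjusted p = 0.0292 in limma), with adjusted p of 1.0 in both. In β-catenin tumours all lucOS values of Pdcd1 were above all luc values in both sets, as for 3.4% and 2.18% of all genes. Tigit too was apart and higher in β-catenin tumours of the first set, where none of the 9 genes was apart and lower (2.95% of all genes), and Pdcd1lg2 was apart in the other direction in the second, as for 2.36% of all genes. In p53 tumours no member was apart, beside 4.63% of all genes apart and higher and 5.07% apart and lower. The sets share no tumour, and the comparisons within the first set share none of their 2 groups. Lgals9 had a log2 difference of 0.89 with lucOS in p53 tumours (95% interval 0.03 to 1.76, unadjusted p = 0.0434 in limma, adjusted p = 0.952).

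Lymphocyte markers differed between the same tumours. In lucOS tumours of the second set, 9 of the 11 T cell markers and 7 of the 7 tested cytotoxic and NK cell markers were called lower in limma, with medians of -2.33 and -3.06. Of all genes 10.9% were called lower and 6.08% higher in that comparison. Summed T cell marker signal was 1088 to 1892 in lucOS p53 tumours, 423 to 627 in lucOS β-catenin tumours and 429 to 670 in luc β-catenin tumours, and no T cell marker was at 0. Summed cytotoxic and NK cell signal was 368 to 465 in lucOS p53, 44.4 to 55.3 in lucOS β-catenin and 30.1 to 109 in luc β-catenin tumours, where Gzmk and Ncr1 were at 0 in a tumour. Of the leukocyte markers 3 of 5 were called lower, of the dendritic cell markers 2 of 8, and of the macrophage and Kupffer cell markers 2 of 9, with 1 higher, Clec4f. Endothelial markers were called lower in 2 of 5 cases, B and plasma cell markers in 1 of 5 and neutrophil markers in 1 of 4. Of the 6 stellate and fibroblast markers 1 was called higher, and no bile duct, hepatocyte or red blood cell marker was called. In the first set the summed T cell signal was 846 to 1367 in lucOS p53 and 618 to 987 in luc p53 tumours. It was 384 to 397 in lucOS β-catenin and 370 to 463 in luc β-catenin tumours, where Cd2 or Cd3d was at 0 in a tumour. The summed signal of Cd3d, Cd3e and Cd3g alone overlapped between drivers in the first set. This CD3 sum was 15.6 to 168 in lucOS p53 and 33.9 to 89.9 in luc p53 tumours. In lucOS and luc β-catenin tumours it was 14.9 to 19.4 and 13.6 to 40.7. On the average of both differences 6 of 11 T cell markers were called lower in limma, beside 18.6% of all genes. The part of these cells in the differences of the checkpoint genes was not tested.

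The receptors were also set against the CD3 chains. The summed signal of Cd3d, Cd3e and Cd3g was 93.9 to 160 in the lucOS p53 tumours of the second set and 14.5 to 34.1 in its β-catenin tumours. The ratio of Pdcd1 to this sum was 0.316 to 0.573 in lucOS p53, 0.292 to 0.464 in lucOS β-catenin and 0 to 0.15 in luc β-catenin tumours. The ratio of Ctla4 was 0.0542 to 0.165 in lucOS p53 and 0.0417 to 0.133 in lucOS β-catenin tumours, and that of Tigit was 0.0843 to 0.274 and 0.0714 to 0.433. For these 3 receptors the lucOS groups overlapped once divided by CD3. In luc β-catenin tumours the ratios of Ctla4 (0 to 0.05) and Tigit (0 to 0.0769), like that of Pdcd1, lay below those of all lucOS p53 tumours. The ratio of Havcr2 was 0.689 to 0.899 in lucOS p53 tumours and 1.2 to 3.54 in lucOS β-catenin tumours, and that of Lag3 was 0.506 to 1.33 and 1.47 to 3.63. Havcr2 and Lag3, which myeloid and other cells can also carry, thus had higher ratios in β-catenin tumours of the second set. The ratio of Foxp3 was higher there too, at 2.61 to 6.95 in lucOS p53 and 15.7 to 19.3 in lucOS β-catenin tumours. The CD3 sum was itself lower in the β-catenin tumours, so any signal that falls less than CD3 rises in this ratio. In the first set the drivers overlapped: the ratio of Havcr2 was 0.58 to 2.41 in lucOS p53 and 1.79 to 4.08 in lucOS β-catenin tumours, and 0.897 to 1.32 and 1.09 to 4.05 in the luc groups. The ratio of Lag3 was 0.936 to 4.65 and 2.16 to 6.67 with lucOS, and 1.24 to 2.16 and 0.977 to 3.08 with luc. In the second set the β-catenin ratios rest on 15 to 40 CD3 reads per tumour, and they are given as values with no test.

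**Figure D5:**
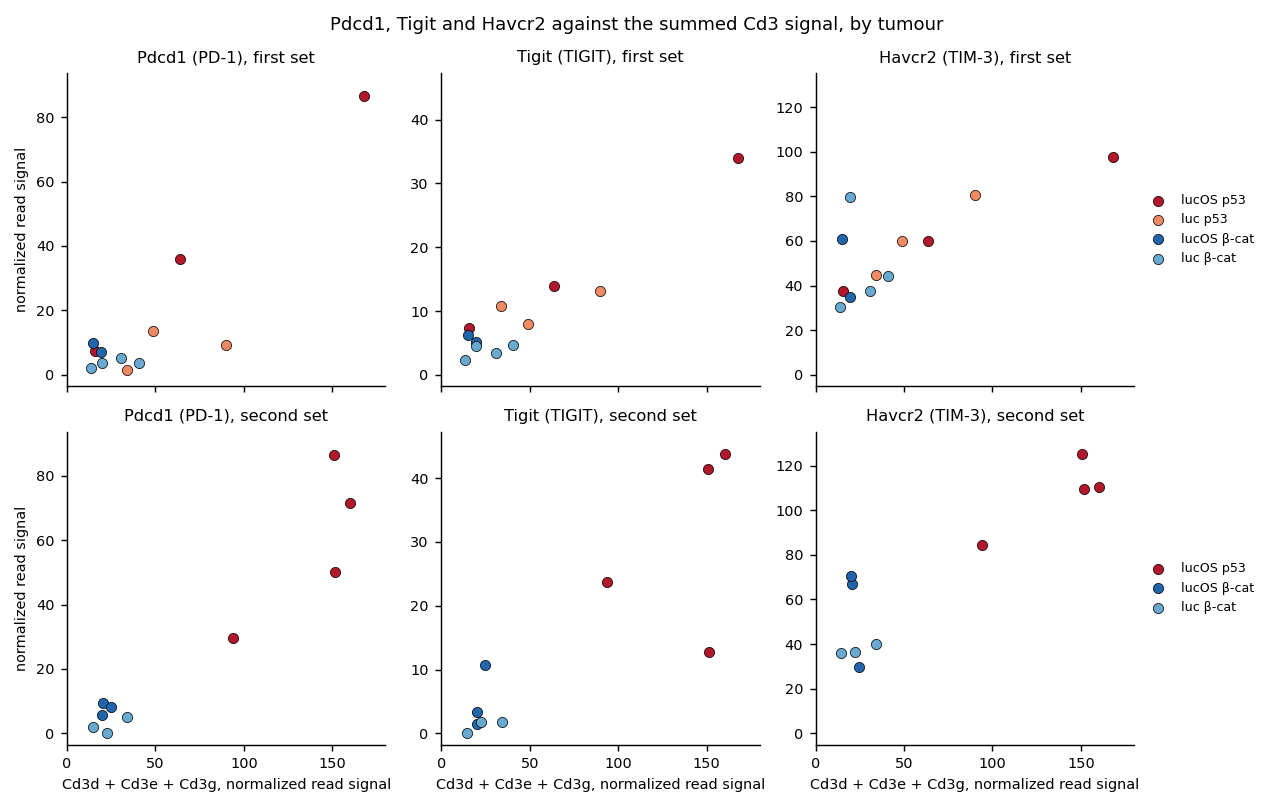
Normalized read signal of Pdcd1, Tigit and Havcr2 (vertical axes) against the summed signal of Cd3d, Cd3e and Cd3g (horizontal axis), 1 point per tumour, coloured by group, in the first set (top) and the second (bottom). β-catenin tumours lie at CD3 sums of 40.7 or below in both sets, where Havcr2 is 29.6 to 79.7 and Pdcd1 is 9.97 or below.

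Partners of the checkpoint genes were read from a list of 35 costimulatory and coinhibitory genes. In lucOS tumours of the second set 30 could be tested, of which 7 were called lower and 2 higher in limma (median -0.96). Of all genes 10.9% were called lower and 6.08% higher, so the count of 2 higher is close to that share. Cd226, the activating receptor for CD155, and Cd96, a further lymphocyte receptor for it, were called lower (log2 difference -2.62 for each, adjusted p = 0.0223 and 0.0196), as was the costimulatory receptor Icos (-1.68, adjusted p = 0.0372). Cd28 (-0.56), Cd80 (-0.93) and Cd86 (-1.66, adjusted p = 0.0535 in limma), the receptor and the ligands that CTLA-4 competes for, were not called. The 2 genes called higher were Ceacam1, reported to bind TIM-3 (1.73, adjusted p = 0.0398 in limma), and Vsig4, a receptor of resident liver macrophages (3.88, adjusted p = 0.0327).

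In luc tumours of the first set 4 of 28 partners were called higher and 1 lower in limma, beside 5.93% and 9.16% of all genes. Ceacam1 had a log2 difference of 2.10 (adjusted p = 0.0172 in limma), the LAG-3 ligand gene Fgl1 1.90 (adjusted p = 0.0434), the ICOS ligand gene Icosl 1.96 (adjusted p = 0.0304) and Nectin2, a ligand of TIGIT and CD226, 0.83 (adjusted p = 0.0494). Nectin3 was lower (-1.73, adjusted p = 0.0355 in limma). In lucOS tumours of the first set 0 of 28 were called in limma, beside 4.21% of all genes. Ceacam1 signal was 1300 ± 266 (SD, n = 2) and 1328 ± 172 (SD, n = 4) in lucOS and luc β-catenin tumours of that set, against 449 ± 376 (SD, n = 3) and 326 ± 129 (SD, n = 3) in lucOS and luc p53 tumours.

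Of 15 further genes of regulatory T cells, 11 were tested in lucOS tumours of the second set and 1 was called lower in limma, Il2rb (-2.88, adjusted p = 0.0038), a receptor chain that NK cells and CD8 T cells also carry. That is close to the 10.9% of all genes called lower. In the first set 12 were tested, with 1 lower in luc tumours (Il2rb), 0 in lucOS tumours, and 3 lower (Il2rb, Ikzf2 and Ccr4) and 1 higher (Nt5e) on their average, beside 18.6% and 9.73% of all genes. Il2ra, the high-affinity IL-2 receptor chain of regulatory T cells, was not called (-1.15, adjusted p = 0.199 in limma). Its signal was 21.1 ± 4.11 (SD, n = 4) in lucOS p53 and 10.1 ± 6.26 (SD, n = 3) in lucOS β-catenin tumours. Of the exhaustion and suppression genes 2 of 8 were called lower in limma in lucOS tumours of the second set, beside 10.9% of all genes. They were Nr4a3 (-3.01, adjusted p = 0.0117 in limma) and Nos2 (-2.60, adjusted p = 0.0213).

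Genes of the interferon gamma pathway, which induces PD-L1, were called lower in 5 of 12 cases in lucOS tumours of the second set. Their median was -1.08 (limma), and 10.9% of all genes were called lower. The chemokine gene Cxcl10 had a log2 difference of -3.30 (adjusted p = 0.00207 in limma), with a mean signal of 1415 ± 273 (SD, n = 4) in lucOS p53 and 154 ± 83.8 (SD, n = 3) in lucOS β-catenin tumours. Irf1, a transcription factor that acts on the PD-L1 gene, had -0.78 (adjusted p = 0.0499 in limma), while the chemokine gene Cxcl9 (-1.37, adjusted p = 0.0657) was not called. In the first set 0 of 11 were called in luc or in lucOS tumours (limma), beside 15.1% and 4.21% of all genes. On the average of both differences 1 of 11, Cxcl10, was called lower (-1.54, adjusted p = 0.0289 in limma), beside 18.6% of all genes. Ifng itself was at 0 to 7.36 in lucOS p53 tumours of the second set, from 0 to 8 reads, and was not tested. Over the 4 lists of partner and pathway genes together the median log2 difference in the second set was -0.85, against -0.16 over all genes. Of the 61 tested, 15 were called lower and 2 higher in limma, beside 10.9% and 6.08% of all genes.

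Per kilobase of transcript, the order of the 10 genes was alike from group to group. Lgals9 was highest in every group, with means of 5114 to 9206 per kilobase, and Pvr was next, at 403 to 704. Foxp3, Cd274, Lag3 and Havcr2 followed: in lucOS p53 tumours of the second set they stood at 146, 120, 69.5 and 39.5, and Foxp3 and Cd274 overlapped there. Tigit (33.1), Pdcd1 (30.8) and Pdcd1lg2 (21.1) had overlapping ranges in that group, and Ctla4 was lowest at 5.91. In lucOS β-catenin tumours of the second set Pdcd1lg2 was lowest, at 0.313, below Ctla4 at 0.962, with ranges that overlapped.

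The genes whose signal was most like each member were found as the 3 with the highest smaller value of Pearson r over the 12 and over the 10 tumours, among 15378 genes kept in both sets, which leaves out Ctla4. The tumours of a set share its scaling, and the driver groups enter every value, so r describes likeness only. For Tigit they were Klrd1, an NK cell receptor (r 0.885 and 0.900), Sh2d2a, a T cell adaptor, and Padi2. For Lag3 they were Socs1 and Gbp2, both interferon-induced, and Mir6381, and for Pdcd1 Mir6381, Itgax and Apol10b. For Cd274 they were Mmp13 (0.939 and 0.925), Stx11 and Fyn, for Pdcd1lg2 Gadd45a, Arl3 and A330021E22Rik, and for Havcr2 A530088E08Rik, Cyp4f18 and Cd244. For Lgals9 they were AI182371, Akr1d1 and Dhcr7, the latter pair being enzymes of sterol metabolism in the liver, and for Pvr Zfp51, Traf3ip1 and Krt18. Among the members, Cd274 and Lag3 were alike in both sets (0.895 and 0.873), while Lgals9 had r of 0.031 and 0.211 with Cd274.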

How the data were processed

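Total RNA of 22 liver tumours was sequenced. The authors deposited, for each set of tumours, a table of normalized read signal per gene. Per the submitters' processing notes, TopHat2, featureCounts, DESeq2 and build mm10 were used, and their versions are not given in the sources used here. The deposited signal values were whole reads divided by 1 factor per tumour in 100.0% of cases (within 0.01 reads), so reads per gene could be recovered. The first table has 33068 rows for 24063 genes, and the transcript with the highest mean stands for each of the 4914 genes with several. In it, 53 symbols that a spreadsheet had turned into dates were restored, and 27 such symbols in the second table were left out.

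Genes with a signal of at least 10 in at least 2 tumours (first set) or 3 tumours (second set) were tested on log2(signal + 1) with limma 3.58.1 (R 4.3.3) and a trended prior, with all groups of a set in one fit. P-values were adjusted over all genes by the Benjamini-Hochberg method and called at 0.05. Differences are on the log2(signal + 1) scale, which understates those of low genes. The fit was tested on simulated data. Alternatives were pseudocounts of 0.5 and 5, no filter, a mean of at least 20, TMM scaling, median centring, summed transcripts, only the groups compared, edgeR 4.0.16 and DESeq2 1.42.0 on recovered reads, leaving out each tumour, and only tumours named JAX. The genes and lists were chosen with earlier results of these data known. The text names the 10 genes, a fixed set of partners whatever their fold (Irf1 and Cxcl9 among them), up to 3 called list genes of largest fold per direction and driver comparison, and the 3 genes most alike to each. Nos2 and Ikzf2 were named after their values were seen. A partner in that set is not reported here.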

Additional observations from a re-analysis of the deposited data

How the results depend on the processing

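In lucOS tumours of the second set the count of the 10 genes called lower was 5. It was 2 with a mean of at least 20 (Cd274 and Pdcd1, with 7 tested) and 0 among tumours named JAX, where 1 p53 tumour and 6 tested genes were left. All genes called were 17.3% and 0.152% in these fits. Leaving out each tumour gave 2 to 5, beside 7.28% to 18.2% of all genes. It was 2 (Cd274 and Pdcd1lg2) without p53 tumour 2, p53 tumour 3 or lucOS β-catenin tumour 2, and 3 without lucOS β-catenin tumour 1. Cd274 and Pdcd1lg2 were called in all 10 of these fits. On the average of the first set the count was 1. It was 0 with a mean of at least 20, TMM scaling, median centring or DESeq2, 2 with summed transcripts (Foxp3 and Tigit), and 0 to 1 when each tumour was left out, beside 19.1% to 29.7% of all genes. The 1 was Tigit without lucOS p53 tumour 3, Lag3 without luc p53 tumour 1, Foxp3 without luc p53 tumour 2 and Pdcd1lg2 without lucOS β-catenin tumour 2. For the other 6 comparisons the count was 0 under every setting run, while the share of all genes called ran from 5.06% to 16.7% in luc and from 0.473% to 5.92% in lucOS tumours of the first set when each tumour was left out.

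Some differences that were not called changed sign, and the cause was not tested. Lag3 in the second set was 0.0745 among tumours named JAX. Cd274 in lucOS tumours of the first set was 0.0552 with TMM, 0.30 with edgeR and 0.28 with DESeq2, and ran from -1.05 to 0.87 when each tumour was left out, with 0.13 without lucOS p53 tumour 1. In the same fits of lucOS tumours Pdcd1lg2 ran from -2.95 to 0.33, Havcr2 from -0.78 to 0.0149, Lgals9 from -0.23 to 0.31 and Pvr from -0.0632 to 0.62. Pvr in luc tumours ran from -0.41 to 0.10. On the average, Cd274 ran from -0.86 to 0.10, and Pvr from -0.15 to 0.19, with -0.04, -0.0035, -0.06, -0.07 and -0.02 among its values below 0. No paired analysis was possible because the labels do not link tumours of different groups. Depth limits Pdcd1lg2, Pdcd1, Ctla4 and Tigit, with 0 to 7 reads in most β-catenin tumours.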

Other observations

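One ratio was looked at after its values were seen. The ratio of Pdcd1 to the summed CD3 chains was 0.368 to 0.667 in the 5 lucOS tumours of the first set and 0.04 to 0.279 in the 7 luc tumours, over both drivers. In the second set it was 0.292 to 0.573 in the 7 lucOS tumours and 0 to 0.15 in the 3 luc tumours. All lucOS tumours were above all luc tumours in both sets for 1 of 15378 genes, Pdcd1 (0.0065%), with 1 gene in the first set alone and 16 (0.104%) in the second. Other denominators did not give this separation in the first set. With Cd4 or Ptprc as denominator, 2 of 5 lucOS tumours were above all luc tumours there, with Cd8a and Cd8b1 4 of 5, and with all 11 T cell markers 4 of 5. In the second set 7 of 7 were above with Cd4, Ptprc or the 11 markers, and 4 of 7 with Cd8a and Cd8b1. The reads behind the ratio are few, with 12 to 44 CD3 reads and 2 to 8 Pdcd1 reads per β-catenin tumour of the first set. In its luc p53 tumours there were 25 to 117 CD3 reads and 1 to 12 Pdcd1 reads. In its lucOS p53 tumours there were 17 to 188 and 8 to 97. No test was made. In the second set all luc tumours were β-catenin tumours, while 4 of the 7 lucOS tumours were p53 tumours. Driver and antigen therefore cannot be told apart in that pooled comparison.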
